A study of Mus musculus with 9 samples.

Results

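The genes described here encode the protein-folding machinery of the endoplasmic reticulum (ER) and the unfolded protein response that adjusts it. They were chosen from a list of 41 gene symbols, all 41 of which were rows among the 23366 in the deposited count table. All 41 also entered the test, among 14988 genes tested. Gene expression was measured by RNA sequencing in mouse embryonic stem cells of the 129 SvJae F1 strain at passage 21. The cells were kept in DMEM with fetal bovine serum and leukaemia inhibitory factor, the cytokine that holds them undifferentiated. Wild-type cells (WT, 3 libraries) were compared with cells in which Sirt6, the gene of a histone deacetylase, is knocked out (Sirt6-KO, 3 libraries). The 3 libraries of glucose-deprived wild-type cells were not analysed here. The labels do not say how the knockout was made, how many clones it represents or whether replicates were separate cultures. The p-values therefore measure the spread between these libraries only, which may be technical.

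Secreted and membrane proteins enter the ER through the Sec61 channel, fold with the help of chaperones such as BiP, gain disulfide bonds from protein disulfide isomerases, and carry sugars that calnexin and calreticulin read. Proteins that fail to fold are drawn back into the cytosol and degraded. When unfolded proteins accumulate, the membrane sensors IRE1 (gene Ern1), PERK (Eif2ak3) and ATF6 are activated: IRE1 splices the mRNA of the transcription factor XBP1, PERK slows translation and favours ATF4, and ATF6 is cut to release a transcription factor. XBP1 and ATF6 raise the genes of folding and degradation.

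Total counts per library ran from 20107037 to 29267115. Levels are CPM, the counts of a gene relative to a library size scaled by the trimmed mean of M values (TMM). "Rose" and "fell" mean that edgeR's quasi-likelihood test over all genes gave a Benjamini-Hochberg adjusted p below 0.05. Sirt6 had 348, 341 and 342 counts in the WT libraries and 12, 6 and 6 in the Sirt6-KO libraries, in the direction of the labels. All 10 stem cell markers were detected, with a summed level of 5986 to 6603 CPM in WT and 6410 to 8052 CPM in Sirt6-KO. Of these markers 3 rose (Sox2 at 0.40, Dppa5a at 0.76 and Tdgf1 at 0.89) and 4 fell (Pou5f1 at -0.46, Nanog at -0.32, Klf4 at -0.97 and Utf1 at -0.64). The 12 markers of primitive and parietal endoderm, cells that secrete basement membrane, summed to 613 to 645 CPM in WT and 194 to 247 CPM in Sirt6-KO, and 11 of the 11 tested fell. The 10 markers of embryonic fibroblasts summed to 4.35 to 5.06 CPM in WT and 32.2 to 40.2 CPM in Sirt6-KO, and 6 of 6 tested rose. Tagln alone averaged 2.21 CPM in WT and 21.7 CPM in Sirt6-KO. Col3a1, Dcn and Postn averaged 0.12, 0.06 and 0.06 CPM in Sirt6-KO, too low to be tested. Lum was at 0 in all libraries (Postn in WT). The part of endoderm or fibroblast cells in the results below was not tested. In bulk RNA fewer cells of a type and less RNA per cell cannot be told apart.

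Within the 41 ER genes, 10 rose and 8 fell in Sirt6-KO, 18 in all or 43.9%, beside 55.7% of all genes tested (27.9% higher and 27.8% lower). The groups did not overlap for 22 of the 41, where 63.2% of all genes tested showed no overlap. The median log2 fold change was 0.08 over the 41 genes and 0.01 over all genes tested. Called changes of at least 0.5 on the log2 scale made up 42.4% of all genes tested. Of the ER genes, 9 were called at that size, 3 higher and 6 lower. The 3 that rose were Derl3, Ero1l and Pdia6. The 6 that fell were Dnajc3, Pdia3, Herpud1, Syvn1, Xbp1 and Uggt1. Only Dnajc3, Pdia3 and Herpud1 changed by at least 1. Of all genes tested, 21.6% were called at that size. In the authors' deposited table the same 18 genes passed an adjusted p of 0.05, with the same signs. The rises numbered 5, 3 and 5 without WT replicate 1, 2 or 3, 5 without Sirt6-KO replicate 2 and 15 without Sirt6-KO replicate 1. The share of all genes called moved too, to 46.1%, 46.4%, 48.6%, 47.1% and 65.5% in the same order. The plot of every library by role shows the strongest falls spread over chaperones, disulfide enzymes, the lectin cycle, sensors and degradation genes. Each of these roles also held genes that did not fall, in the lectin cycle Canx alone.

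**Figure D1:**
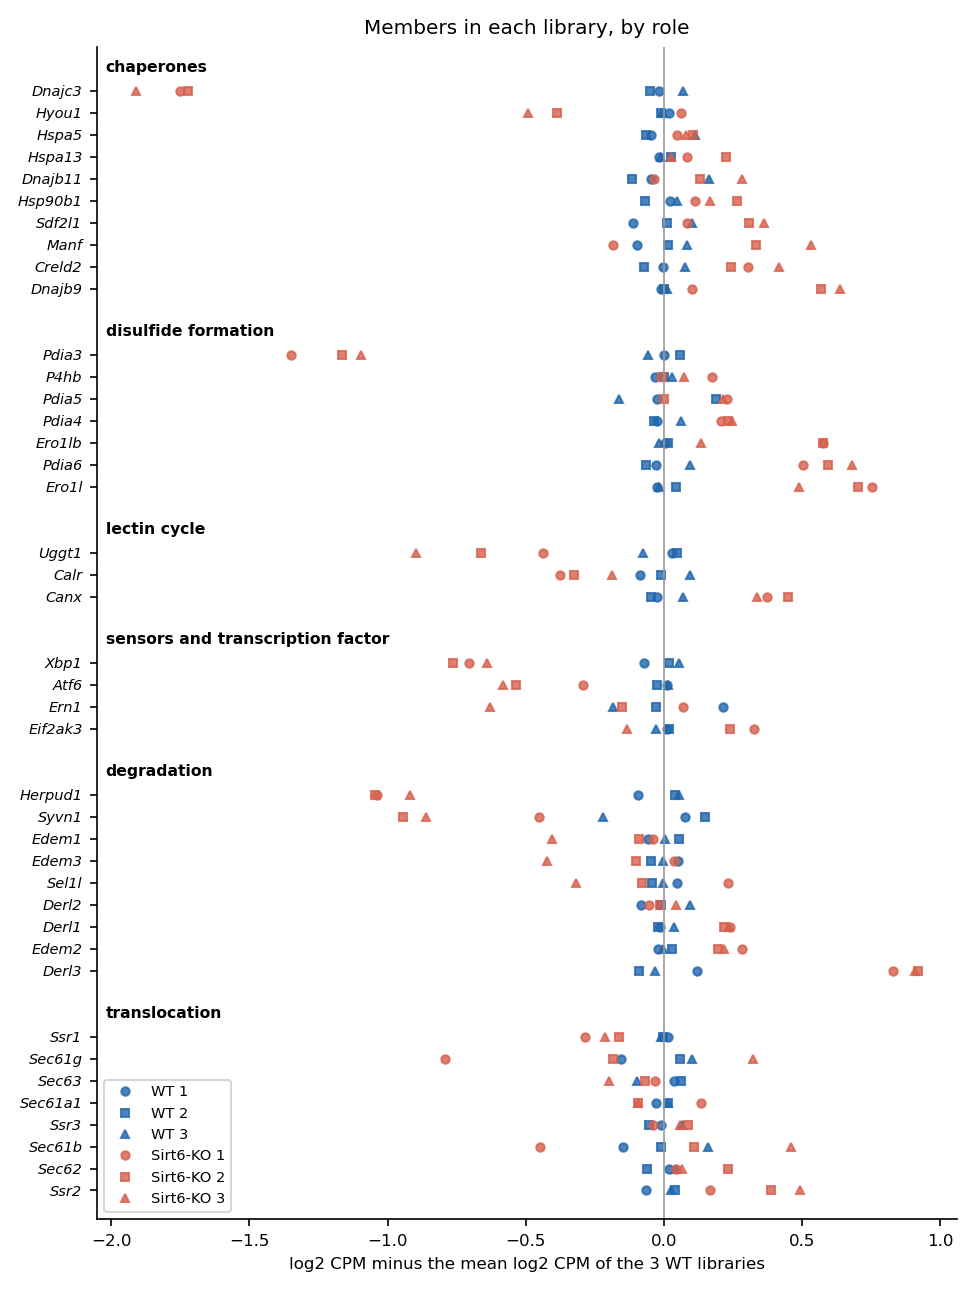
Each point is 1 library: the horizontal axis gives its log2 CPM minus the mean log2 CPM of the 3 WT libraries (blue), with Sirt6-KO libraries in red and the 41 genes grouped by role. The Sirt6-KO libraries lie far to the left for Dnajc3, Pdia3 and Herpud1 and furthest to the right for Derl3, while those of Sec61g and Sec61b are spread to both sides of WT.

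The sensors and their effector were lower or did not pass. Xbp1, the transcription factor whose mRNA IRE1 splices, was at 112, 119 and 122 CPM in WT and 72.2, 69.3 and 75.6 CPM in Sirt6-KO. Every knockout library was below every WT library, and Xbp1 fell 1.63-fold (log2 change -0.70 ± 0.09 SE, adjusted p = 7.72e-05, edgeR). Counts per gene do not separate the spliced from the unspliced Xbp1 mRNA, so IRE1 activity was not read here. Atf6 was at 73.2, 71.3 and 73.3 CPM in WT and 59.3, 50.2 and 48.6 CPM in Sirt6-KO, again without overlap, and fell 1.38-fold (-0.46 ± 0.10, adjusted p = 0.00282). Atf6 lies on chromosome 1, where the median log2 change of 804 tested genes was -0.30 and 46.1% fell. The part of that chromosome-wide shift in single genes was not tested.

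The 2 kinase sensors overlapped between the groups. Ern1 was at 11.1, 9.41 and 8.46 CPM in WT and 10.1, 8.64 and 6.21 CPM in Sirt6-KO (log2 change -0.21 ± 0.18, adjusted p = 0.342). Eif2ak3 was at 34.8, 34.9 and 33.8 CPM in WT and 43.2, 40.7 and 31.4 CPM in Sirt6-KO (0.16 ± 0.12, adjusted p = 0.289). Sirt6-KO replicate 3 was below WT and the other two were above. Without Sirt6-KO replicate 3, Eif2ak3 passed the test at 0.26 (adjusted p = 0.0234), and with the trends on transcript length and GC content removed at 0.24 (adjusted p = 0.0128).

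Other genes of these signalling arms were taken from 2 fixed lists. Of 10 genes on the list named PERK arm outputs, 5 fell and 1 rose (median -0.26). That is 60.0% called, beside 55.7% of all genes tested. Not every gene of the list is an output of PERK or particular to it. Ppp1r15b, which brings a phosphatase to the PERK substrate eIF2 alpha, was at 255, 265 and 241 CPM in WT and 113, 96.5 and 84.4 CPM in Sirt6-KO (log2 change -1.38 ± 0.12). Atf4, the transcription factor translated when PERK is active, was at 296, 293 and 314 CPM in WT and 117, 125 and 150 CPM in Sirt6-KO (-1.21 ± 0.11). Trib3, a target of ATF4, changed by -1.02 ± 0.12. The member that rose was Ddit3, the gene of the stress factor CHOP, at 0.84. The other falls were the ATF4 target Chac1 at -0.87 and Sesn2 at -0.40. The 4 that did not pass were Ppp1r15a (0.25), Eif2a (0.09), Atf3 (-0.07) and Asns (-0.13). The genes from Ddit3 to Asns are named after their values were seen. Ppp1r15b, like Atf6, is on chromosome 1, and Ddit3 is on chromosome 10, whose median is given with Derl3.

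Of 15 other regulators 2 rose and 4 fell (median 0.06), 40.0% called beside 55.7% of all genes tested. Nfya, a subunit of the NF-Y factor that binds the CCAAT box, fell 2.89-fold, from 38.5, 39.6 and 33.9 CPM in WT to 14.9, 11.9 and 11.8 CPM in Sirt6-KO (-1.53 ± 0.12, adjusted p = 2.72e-06, edgeR). Its partner subunits Nfyb and Nfyc were at 0.25 and -0.24 and did not pass (adjusted p = 0.0817 and 0.0541). Nfyb passed without Sirt6-KO replicate 1 (0.36, adjusted p = 0.00131) and with total counts in place of TMM (0.37, 0.0150). Nfyc passed without Sirt6-KO replicate 3 (-0.34, adjusted p = 0.00611) and with the length and GC trends removed (-0.33, 0.000450). Rtcb, the ligase that joins the cut Xbp1 mRNA, rose by 0.58 ± 0.11, and Creb3l3, an ATF6-related membrane factor, rose by 1.61 ± 0.24 from 0.652 CPM. Mbtps2, a protease that cuts ATF6 in the Golgi, fell (-0.47). Mbtps1, the other such protease, and Atf6b, the relative of Atf6, were at -0.34 and -0.33. With total counts in place of TMM they did not pass, at -0.22 and -0.21 (adjusted p = 0.170 and 0.221). Mbtps1 did not pass without WT replicate 1 or 2 or Sirt6-KO replicate 2 (adjusted p = 0.0770, 0.0716 and 0.0785). Atf6b did not pass without WT replicate 1, 2 or 3 or Sirt6-KO replicate 2 (adjusted p = 0.0933, 0.135, 0.0665 and 0.163), nor where only genes averaging 1 CPM or more were kept (0.0541). Mbtps1 is on chromosome 8 and Mbtps2 on the X chromosome, whose medians are given with Uggt1 and Ssr4. Rtcb and Creb3l3 are on chromosome 10, whose median is given with Derl3. The names of Nfyb, Nfyc, Mbtps1, Mbtps2 and Atf6b were also chosen after their values were seen.

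The ER stress response element (ERSE) is the DNA site through which ATF6 and XBP1, together with NF-Y, act on chaperone genes. Promoters of 250 bases before to 50 after the start of transcription, from RefSeq (GRCm38.p6), were matched for 34 of the 41 genes. The ERSE, written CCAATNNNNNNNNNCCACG, was searched on both strands. It occurred in the promoters of 10 of the 34 genes, or 29.4%, and for 37 of all 27025 genes, or 0.137% (0.119% of all 32851 promoters). The ERSE contains the CCAAT box (CCAAT), which alone was found for 25 of the 34 genes, or 73.5%, and for 41.1% of all genes (37.4% of all promoters). The related ERSE-II, ATTGG and CCACG with any 1 base between them, was searched likewise. It was found for Herpud1 and Dnajb11, 5.88% of the 34 genes, and for 0.0444% of all genes (0.0365% of all promoters). The UPR element core, TGACGTGG, was found for 0 of the 34 genes and for 0.714% of all genes (0.676% of all promoters). A match describes letters in this window only. The sites of the genes whose values are given library by library are shown on the strand of the gene, with 15 bases on each side and the motif's fixed letters in capitals, so that sites of genes that moved in different directions can be compared.
Hspa5 ERSE: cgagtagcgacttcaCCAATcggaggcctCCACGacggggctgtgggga
Hsp90b1 ERSE, first site: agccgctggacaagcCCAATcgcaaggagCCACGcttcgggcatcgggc
Hsp90b1 ERSE, second site: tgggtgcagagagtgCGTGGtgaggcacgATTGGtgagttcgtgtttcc
Pdia6 ERSE: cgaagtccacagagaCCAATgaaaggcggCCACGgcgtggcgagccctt
Derl3 ERSE: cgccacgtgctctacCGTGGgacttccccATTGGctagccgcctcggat
Dnajc3 ERSE: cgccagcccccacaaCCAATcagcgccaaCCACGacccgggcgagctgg
Syvn1 ERSE: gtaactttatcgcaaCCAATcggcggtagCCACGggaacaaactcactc
Herpud1 ERSE-II: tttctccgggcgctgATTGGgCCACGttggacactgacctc

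In GRCm38.p6 the printed windows are chr2:34772010-34772058 (plus strand) for Hspa5, chr10:86705623-86705671 and chr10:86705518-86705566 (minus strand) for Hsp90b1, and chr12:17266476-17266524 (plus strand) for Pdia6. They are chr10:75893227-75893275 for Derl3, chr14:118937812-118937860 for Dnajc3, chr19:6046517-6046565 for Syvn1 and chr8:94386362-94386402 for Herpud1, all on the plus strand. The ERSE of Derl3 and the second one of Hsp90b1 read in the opposite direction, so their capitals appear as the reverse complement. The motif began 65 bases before the start in Hspa5, 98 in Pdia6, 105 in Dnajc3 and 44 in Syvn1. It began 212 and 107 bases before it in Hsp90b1 and 156 in Derl3, and the ERSE-II of Herpud1 began 52 bases before it. Of the 10 genes with an ERSE, 5 rose (Derl3, Pdia6, Ero1lb, Canx and Creld2), 3 fell (Dnajc3, Syvn1 and Calr) and 2, Hspa5 and Hsp90b1, did not pass. Of all genes tested, 27.9% rose and 27.8% fell. The log2 changes of the 10 genes ran from -1.79 for Dnajc3 to 0.88 for Derl3, the lowest and the highest of all 41 genes.

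Among the chaperones and their partners, 2 of 10 rose and 1 fell (30.0% called, beside 55.7% of all genes tested). Hspa5 encodes BiP, the main Hsp70 chaperone of the ER and the usual marker of the unfolded protein response. It was at 473, 466 and 528 CPM in WT and 505, 525 and 516 CPM in Sirt6-KO, with the knockout libraries inside the WT range (log2 change 0.07 ± 0.10, adjusted p = 0.551). Hsp90b1, which encodes the Hsp90 chaperone GRP94, was at 534, 501 and 545 CPM in WT and 570, 633 and 591 CPM in Sirt6-KO. The knockout libraries were all above WT, by a change that did not pass the test (0.18 ± 0.10, adjusted p = 0.148). It passed with total counts in place of TMM (0.31, adjusted p = 0.0322) and without Sirt6-KO replicate 1 (0.22, adjusted p = 0.0313).

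Dnajc3, also known as p58IPK, is a J-domain co-chaperone of BiP that binds unfolded proteins and restrains PERK, and it showed the largest change of the 41 genes. Its level was 128, 125 and 135 CPM in WT and 38.3, 39.1 and 34.3 CPM in Sirt6-KO. No knockout library came near WT, and the fall was 3.47-fold (log2 change -1.79 ± 0.10, adjusted p = 2.32e-07, edgeR). In all 13 alternatives run it stayed between -1.83 and -1.67. On its chromosome, 14, the median of 505 tested genes was -0.13 and 37.6% fell. The other J-domain partners of BiP did not follow it. Dnajb9 (ERdj4) rose by 0.45 ± 0.15, from 10.3, 10.3 and 10.4 CPM to 11.1, 15.3 and 16.1 CPM. That call ended without any single WT replicate (adjusted p = 0.0629, 0.0654 and 0.0608 without replicates 1, 2 and 3) and without Sirt6-KO replicate 2 or 3 (0.0925 and 0.0890). With the trends on length and GC content removed, Dnajb9 was at 0.20 (adjusted p = 0.0872). Dnajb11 (ERdj3) was at 0.13 ± 0.11 and did not pass.

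The Hsp70 relatives and small secreted chaperones changed little or unevenly. Creld2, a stress-induced secreted ER protein, rose by 0.32 ± 0.09, from 54.5 ± 2.79 to 68.1 ± 4.19 CPM (SD, n = 3). It did not pass without WT replicate 1 or 2 (adjusted p = 0.0561 and 0.0958, edgeR). Sdf2l1, a partner of Dnajb11, was at 0.25 and did not pass (adjusted p = 0.0737). It passed with total counts (0.37, adjusted p = 0.0145), with the length and GC trends removed (0.22, 0.0156), and without Sirt6-KO replicate 1 (0.34, 0.00462). Hyou1, a large Hsp70 relative that exchanges nucleotide on BiP, was even in WT at 216, 212 and 213 CPM but at 223, 164 and 152 CPM in Sirt6-KO replicates 1, 2 and 3. Manf, a small secreted protein that binds BiP, showed the opposite spread, at 65.9, 94.2 and 108 CPM in Sirt6-KO against 69.8, 75.7 and 79.2 CPM in WT. Neither passed over all libraries (-0.25 and 0.25, adjusted p = 0.140 and 0.190). Without Sirt6-KO replicate 1 both passed, Hyou1 at -0.43 and Manf at 0.44 (adjusted p = 0.000338 and 0.000642). With total counts Manf was at 0.37 (adjusted p = 0.0463), and its exons overlap those of Dcaf1 and Rbm15b, so its level is uncertain. Hspa13, an Hsp70 relative of microsomes, was at 0.11 and did not pass.

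Of the 7 genes of disulfide bond formation, 4 rose and 1 fell (71.4% called, beside 55.7% of all genes tested). Pdia3 (ERp57), the disulfide isomerase that works with calnexin and calreticulin on glycoproteins, was at 167, 173 and 160 CPM in WT and 65.4, 74.2 and 77.9 CPM in Sirt6-KO. The groups were far apart, and Pdia3 fell 2.30-fold (log2 change -1.20 ± 0.10, adjusted p = 3.36e-06). Pdia6 (P5), an isomerase that binds BiP and IRE1, was at 225, 219 and 245 CPM in WT and 326, 347 and 368 CPM in Sirt6-KO. All its knockout libraries lay above WT, and it rose 1.51-fold (0.59 ± 0.10, adjusted p = 0.000442). P4hb, which encodes the abundant isomerase PDI, overlapped between the groups at 347 ± 7.32 and 367 ± 23.4 CPM (0.08), and so did Pdia5 at 7.17 ± 0.883 and 7.91 ± 0.681 CPM.

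The oxidases that recharge the isomerases were higher. Ero1l was at 54.8, 57.4 and 54.97 CPM in WT and 94.0, 90.6 and 78.1 CPM in Sirt6-KO. Each knockout library exceeded each WT library, a rise of 1.57-fold (0.65 ± 0.10, adjusted p = 0.000248). Its paralogue Ero1lb rose by 0.45 ± 0.14 from 8.49 ± 0.0979 to 11.5 ± 1.93 CPM (SD, n = 3). Without WT replicate 2 or 3 or Sirt6-KO replicate 2 Ero1lb did not pass (adjusted p = 0.0529, 0.0573 and 0.0747, edgeR). Pdia4 (ERp72) was only just past the threshold, at 0.23 ± 0.09 (adjusted p = 0.0487). It did not pass without any single one of the WT replicates (adjusted p = 0.163, 0.209 and 0.0940) or without Sirt6-KO replicate 2 or 3 (0.110 and 0.0635). It was at 0.35 with total counts (adjusted p = 0.0112), at 0.22 without a filter on low counts (0.0864) and at 0.12 with the length and GC trends removed (0.0769).

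The 3 genes of the lectin cycle, in which sugars mark whether a glycoprotein has folded, all passed, 1 higher and 2 lower. Of all genes tested 55.7% passed. Canx encodes calnexin, the membrane lectin, and rose from 625 ± 26.7 to 816 ± 32.3 CPM (SD, n = 3; log2 change 0.39 ± 0.10). Calr encodes its soluble relative calreticulin and fell from 590 ± 36.9 to 480 ± 33.1 CPM (-0.30 ± 0.11, adjusted p = 0.0343, edgeR). Canx did not pass without WT replicate 2 (0.36, adjusted p = 0.0623). Calr did not pass without WT replicate 1, 2 or 3 or Sirt6-KO replicate 2 (adjusted p = 0.0753, 0.101, 0.139 and 0.112), nor with total counts, where it was at -0.18 (0.183). Uggt1, the glucosyltransferase that returns misfolded glycoproteins to the cycle, was at 198, 201 and 184 CPM in WT and 143, 123 and 104 CPM in Sirt6-KO. Its groups did not overlap, and it fell 1.57-fold (-0.65 ± 0.12, adjusted p = 0.000874). With the trends on length and GC content removed it was at -0.37 (adjusted p = 8.15e-05). Uggt1 is on chromosome 1, whose median is given above, and Calr on chromosome 8, where the median of 779 tested genes was -0.23 and 42.1% fell.

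Ratios of counts within a library do not depend on how libraries are scaled. These pairs were picked after their values were seen and are given as a description. Canx over Calr was 1.11, 1.03 and 1.04 in the WT libraries and 1.78, 1.81 and 1.52 in the Sirt6-KO libraries. Pdia6 over Pdia3 was 1.35, 1.27 and 1.53 in WT and 4.98, 4.67 and 4.73 in Sirt6-KO. The groups were apart for both pairs. Hsp90b1 over Hspa5 overlapped, at 1.13, 1.07 and 1.03 in WT and 1.13, 1.21 and 1.15 in Sirt6-KO.

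**Figure D2:**
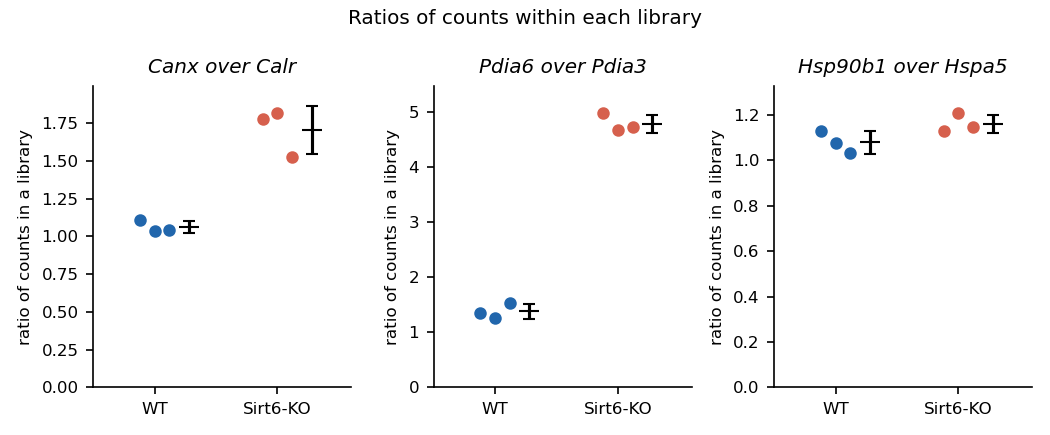
Each panel plots the ratio of the counts of 2 genes (vertical axis, starting at 0) in every WT (blue) and Sirt6-KO (red) library, with the mean and SD of 3 libraries in black. Canx over Calr averaged 1.06 in WT and 1.71 in Sirt6-KO, Pdia6 over Pdia3 1.38 and 4.79, and Hsp90b1 over Hspa5 1.08 and 1.16.

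ER-associated degradation, which sends failed proteins to the proteasome, held genes that moved in opposite directions: 2 of 9 rose and 2 fell. That is 44.4% called, beside 55.7% of all genes tested. Herpud1, a membrane adaptor of the retrotranslocation complex, was at 23.2, 25.5 and 25.7 CPM in WT and 12.1, 11.997 and 13.1 CPM in Sirt6-KO. It fell 2.004-fold without overlap (log2 change -1.003 ± 0.10, adjusted p = 1.49e-05), and it lies on chromosome 8. Syvn1 encodes HRD1, the ubiquitin ligase of the complex, and was at 27.4, 28.8 and 22.3 CPM in WT and 19.0, 13.5 and 14.3 CPM in Sirt6-KO. The highest knockout library was below the lowest WT library, and Syvn1 fell 1.67-fold (-0.74 ± 0.15, adjusted p = 0.00155). Its exons overlap those of Mrpl49 on the opposite strand (77.9 CPM in WT and 71.2 in Sirt6-KO), so its level is uncertain. Syvn1 is on chromosome 19, where the median of 495 tested genes was -0.09 and 33.3% fell. Sel1l, the partner that stabilises HRD1, was at 51.5 ± 1.64 and 50.1 ± 9.64 CPM and did not pass (-0.04, adjusted p = 0.831).

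The Derlins, membrane proteins that help to thin the bilayer for retrotranslocation, ranged from level to the largest rise of the 41 genes. Derl3 was at 3.39, 2.93 and 3.05 CPM in WT and 5.54, 5.90 and 5.86 CPM in Sirt6-KO. Its groups did not overlap, and it rose 1.84-fold (0.88 ± 0.14, adjusted p = 0.000305) on counts of 70 to 176 per library. Derl3 is on chromosome 10, where the median of 703 tested genes was 0.17 and 36.6% rose. The part of that shift in single genes was not tested. Derl1 rose by 0.23 ± 0.09, from 58.4 ± 1.27 to 68.5 ± 0.550 CPM (SD, n = 3, adjusted p = 0.0414, edgeR). It did not pass without WT replicate 1, 2 or 3 (adjusted p = 0.134, 0.176 and 0.102), without Sirt6-KO replicate 2 or 3 (0.0832 and 0.05003) or without a filter on low counts (0.0797), and was at 0.35 with total counts. Derl2 was at -0.01 and did not pass.

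The Edem genes encode lectins that mark glycoproteins for degradation by trimming mannose. The 3 did not pass: Edem1 was at -0.17, Edem2 at 0.23 and Edem3 at -0.15 (adjusted p = 0.218, 0.0521 and 0.313). The knockout libraries of Edem2 were all above WT, at 22.9 ± 0.405 CPM in WT and 26.9 ± 0.861 CPM in Sirt6-KO (SD, n = 3). Edem2 passed with DESeq2 size factors, with total counts (0.36) and where only genes averaging 1 CPM or more were kept (adjusted p = 0.0394, 0.0153 and 0.0312, edgeR). It also passed with the length and GC trends removed (0.0196) and without Sirt6-KO replicate 1 (0.0372). Edem3 passed without Sirt6-KO replicate 1 (-0.24, adjusted p = 0.0408).

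**Figure D3:**
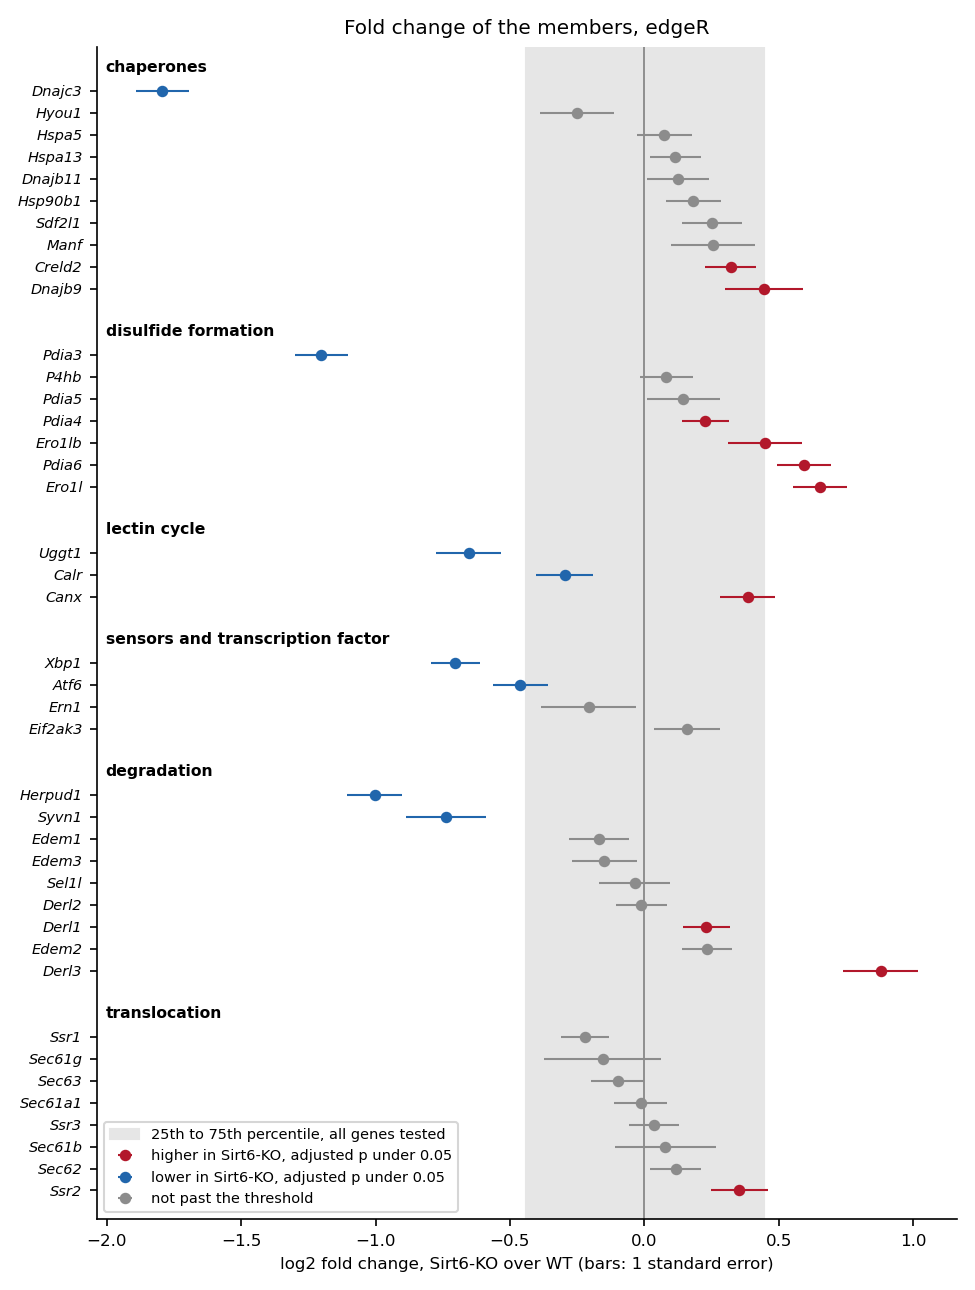
Points give edgeR's log2 fold change of Sirt6-KO over WT for each of the 41 genes by role, with bars of 1 standard error, in red where higher, blue where lower and grey where the adjusted p was not under 0.05. The grey band spans the 25th to the 75th percentile of all genes tested, -0.44 to 0.44, and Dnajc3 (-1.79), Pdia3 (-1.20) and Herpud1 (-1.003) lie furthest outside it.

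The 8 translocation genes gave 1 call (12.5%, beside 55.7% of all genes tested) and held the widest spread within the knockout. Ssr2, the beta subunit of the translocon-associated TRAP complex, rose from 184 ± 7.10 to 235 ± 26.5 CPM (SD, n = 3; 0.35 ± 0.11). It did not pass without WT replicate 1, 2 or 3 or Sirt6-KO replicate 2 (adjusted p = 0.0772, 0.0550, 0.0522 and 0.0585, edgeR). The alpha and gamma subunits Ssr1 and Ssr3 were at -0.22 and 0.04 and did not pass (adjusted p = 0.0532 and 0.768). Ssr1 passed without Sirt6-KO replicate 1 (-0.18, adjusted p = 0.0497) and without Sirt6-KO replicate 3 (-0.24, adjusted p = 0.0353). Ssr3 turned to -0.17 (adjusted p = 0.0104) with the length and GC trends removed. Ssr4, the delta subunit and a gene of the fixed list of targeting and signal peptide genes, rose 2.95-fold from 43.7, 43.9 and 50.5 CPM to 108, 130 and 170 CPM (1.56 ± 0.16). Ssr4 is on the X chromosome, where the median of 532 tested genes was 0.20 and 39.7% rose.

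The Sec61 channel itself did not pass. Sec61a1, its pore subunit, was at 257 ± 4.57 and 255 ± 23.6 CPM (SD, n = 3; -0.01). Sec61g, a small subunit, was at 123, 142 and 147 CPM in WT and 79.0, 120 and 171 CPM in Sirt6-KO. Sec61b, the other small subunit, was at 73.9, 81.2 and 91.2 CPM in WT and 59.9, 88.1 and 112 CPM in Sirt6-KO. For both, Sirt6-KO replicate 1 was below all WT libraries and Sirt6-KO replicate 3 above them. Sec61g passed at -0.48 without Sirt6-KO replicate 3 (adjusted p = 0.0301) and at -0.38 with the length and GC trends removed (0.0292). Sec61b passed at 0.30 without Sirt6-KO replicate 1 (0.0313). Sec62 and Sec63, which serve translocation after translation, were at 0.12 and -0.10.

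Differences between libraries of a group correlated with transcript length, and in part with GC content. The log2 CPM of Sirt6-KO replicate 3 minus that of replicate 1 correlated with the log2 length of the longest coding transcript at Pearson r = -0.71 (Spearman rho = -0.77) over the 41 genes, and at -0.52 (rho = -0.56) over 14829 tested genes with a length. Between WT replicates 1 and 3 the values were -0.51 (rho = -0.53) over the 41 genes and -0.22 (rho = -0.36) over the 14829. For Sirt6-KO replicate 2 minus replicate 1, rho with length was -0.47 over the 41 genes and -0.35 over the 14829. With GC content, rho was -0.30 and -0.42 for that pair, and 0.05 and -0.17 for Sirt6-KO replicate 3 minus replicate 1. The points of each correlation share the same 2 libraries, and genes are not independent replicates. Sec61g (1.12), Sec61b (0.91), Manf (0.72) and Dnajb9 (0.53) were higher in Sirt6-KO replicate 3 than in replicate 1, while Ern1 (-0.69), Hyou1 (-0.55), Sel1l (-0.55) and Uggt1 (-0.46) were lower. For the difference between the groups the correlation with length was -0.29 (rho = -0.37) over the 41 genes and -0.05 (rho = -0.11) over all. The coefficient of variation between libraries was larger in Sirt6-KO than in WT for 32 of the 41 genes, with medians of 8.61% and 4.26%, and for 75.1% of all genes tested.

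**Figure D4:**
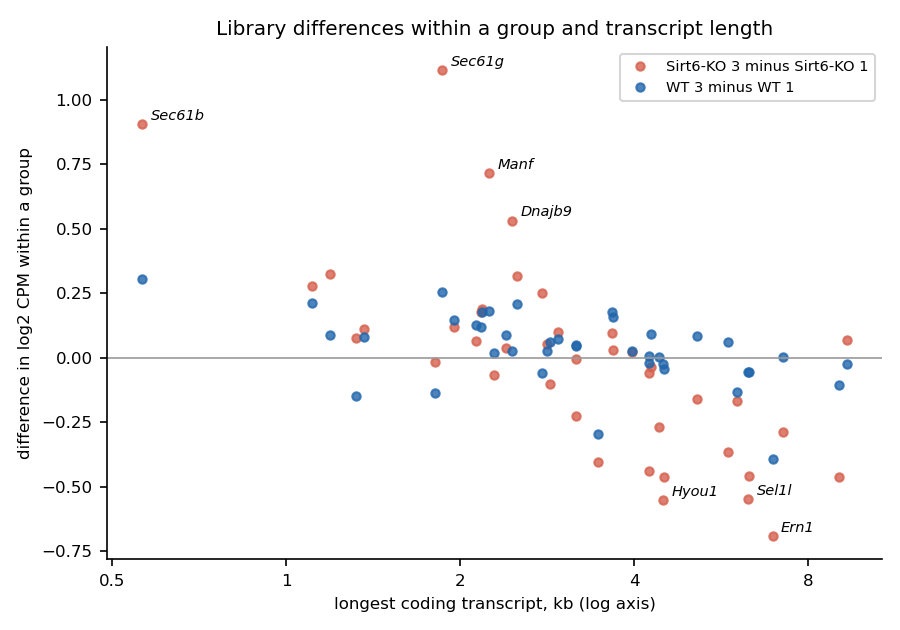
Each gene appears as a red point (Sirt6-KO replicate 3 minus replicate 1) and a blue point (WT replicate 3 minus replicate 1) on the log2 CPM scale, against the length of its longest coding transcript in kb on a log axis. Genes with short transcripts tend to lie above 0 and genes with long ones below, from 1.12 for Sec61g to -0.69 for Ern1 in the knockout pair.

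Levels were compared between genes per kilobase of the longest coding transcript, as CPM per kb, which may not be the transcript these cells use. In WT the highest were Calr at 270 ± 16.9, Hsp90b1 at 186 ± 7.98, Ssr2 at 155 ± 5.97 and Canx at 146 ± 6.25 CPM per kb (SD, n = 3). Sec61b at 146 ± 15.5 and Hspa5 at 133 ± 9.23 CPM per kb followed. Neighbours among Canx, Sec61b and Hspa5 were no further apart than the larger of the 2 SDs, whereas neighbours among Calr, Hsp90b1, Ssr2 and Canx were further apart than that. In Sirt6-KO neighbours among these first 4 were within the larger SD of each other, with Calr at 220.0 ± 15.1, Hsp90b1 at 212 ± 11.3, Ssr2 at 198 ± 22.3 and Canx at 191 ± 7.54 CPM per kb. The sensor Ern1 was last of the 41 in both groups, at 1.39 ± 0.196 and 1.20 ± 0.281 CPM per kb, below Ero1lb at 2.002 ± 0.0231 and 2.72 ± 0.455 CPM per kb. Eif2ak3 was at 7.64 ± 0.138 and Atf6 at 10.0 ± 0.155 CPM per kb in WT, whereas Xbp1 was at 55.3 ± 2.47 CPM per kb. Dnajc3 went from 25.1 ± 1.07 to 7.24 ± 0.494 CPM per kb, while Dnajb11, within an SD of it in WT at 23.3 ± 2.41, was at 25.5 ± 2.81 CPM per kb in Sirt6-KO.

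The wider secretory pathway was read from fixed lists of 120 further genes, of which 118 were tested, 21 rose and 31 fell (44.1%, beside 55.7% of all genes tested), with a median of -0.01. This count includes the other regulators and the list named PERK arm outputs, both described above. Of 23 other folding enzymes 7 rose and 5 fell: Tmx4, a membrane thioredoxin, rose 2.07-fold and the prolyl isomerase genes Fkbp11 and Fkbp10 moved apart (1.07 ± 0.17 and -0.97 ± 0.11). Of 21 other degradation genes 3 rose and 8 fell. They included the lectin gene Erlec1 (-0.72 ± 0.11), the rhomboid protease gene Rhbdd1 (-0.65 ± 0.11) and the deglycosylating enzyme gene Ngly1 (0.56 ± 0.10). Of 17 N-glycosylation genes 2 rose and 4 fell. Ganab, the glucosidase II subunit that trims sugars for the lectin cycle, fell 2.21-fold from 251, 251 and 241 CPM to 129, 107 and 99.7 CPM, and Stt3b, a catalytic subunit of the oligosaccharyltransferase, and Alg2 changed by -0.66 ± 0.10 and -0.62 ± 0.11.

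Among 16 targeting and signal peptide genes 2 rose and 2 fell, with Srp68 of the signal recognition particle at -0.82 ± 0.10 and the signal peptidase gene Spcs3 at -0.55 ± 0.09. Among 16 genes of ER exit and retrieval 4 rose and 3 fell (43.75% called). Kdelr3, a receptor that returns escaped chaperones to the ER, fell 2.16-fold (-1.11 ± 0.13), the coat gene Sec24a fell 2.06-fold and the cargo receptor gene Tmed10 was at -0.39 ± 0.10. Of the named genes, Rhbdd1 is on chromosome 1, Spcs3 on chromosome 8 and Ganab, like Syvn1, on chromosome 19. Scaling by total counts in place of TMM shifted the median over all genes from 0.01 to 0.13. Then 32 of these pathway genes rose and 24 fell, and 62.3% of all calls were higher against 50.1%. On that scale 14 of the 41 ER genes rose and 7 fell. Without Sirt6-KO replicate 1, 38 of the pathway genes rose and 39 fell, and 65.5% of all genes tested were called. Without WT replicate 2 there were 13 rises, and 46.4% of all genes tested were called. With the length and GC trends removed, 49 fell, and 67.3% of all genes tested were called, against 55.7% in the main fit.

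**Figure D5:**
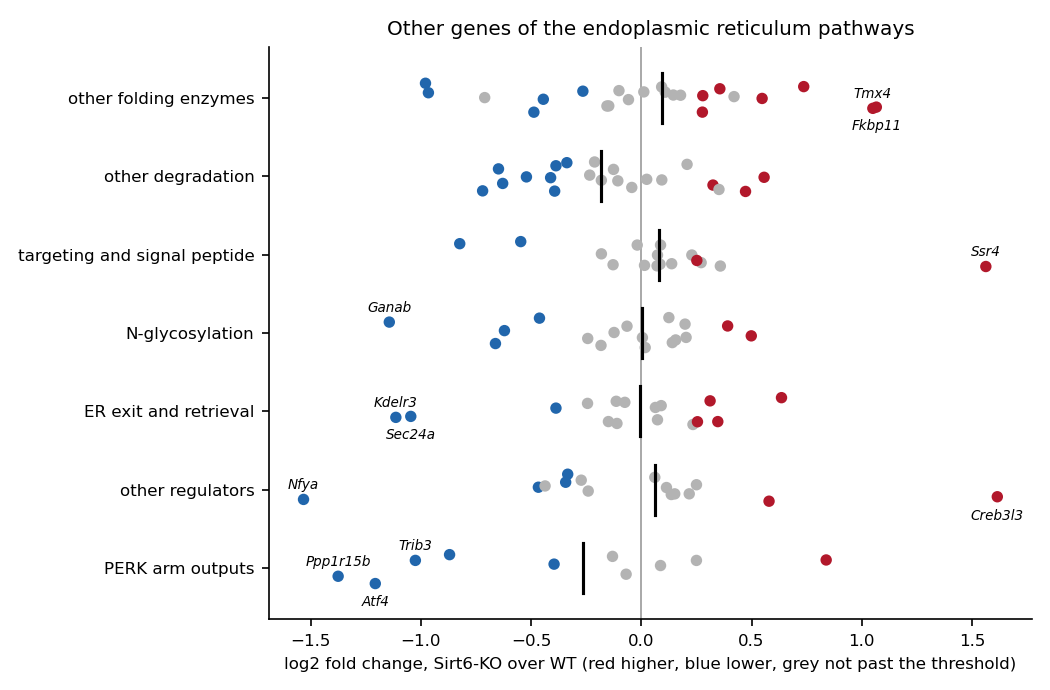
Each point is a tested gene of a fixed list, at its log2 fold change of Sirt6-KO over WT, coloured red (higher) or blue (lower) where the adjusted p was under 0.05; black ticks mark list medians and called genes of at least 1 in size are named. The medians lie between -0.26 (PERK arm outputs) and 0.09 (other folding enzymes).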

How the data were processed

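Raw counts, whole numbers for each gene symbol, were deposited in 1 column per library, per the file headers. The submitters' processing notes name the build mm9 and the tools DESeq2, HTSeq 0.6.1 and TopHat2 2.0.10, without role or order. The annotation, any filter and the strand setting were not given in the sources used here. The authors' deposited table of Sirt6-KO against WT holds, per the file headers, p-values with and without adjustment, a Wald score, a log2 fold change and its error, and a mean normalized signal.

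Counts were tested with edgeR 4.0.16 in R 4.3.3 (quasi-likelihood, two-sided, TMM, filterByExpr, a mean per group over 6 libraries), with Benjamini-Hochberg adjustment over all 14988 genes tested and a threshold of 0.05; the script was tested on simulated data. The standard error is the size of the log2 fold change divided by the square root of F. Members, lists, roles and alternatives were chosen with earlier results of these data known. Every member may be named. By rule, values by library are given for called members of at least 0.5 (log2), the sensors, Hspa5 and Hsp90b1. Outside this rule they are also given for Dnajb9, Hyou1, Manf, Sec61g and Sec61b, whose libraries differ within the knockout. From other lists up to 3 called genes with the smallest adjusted p are named. Rtcb was matched by its older symbol. Lengths, GC content and chromosomes came by symbol from GENCODE M21 and RefSeq (GRCm38), not the authors' build. All pairs of replicates differed by more than sampling noise (chi-square over its degrees of freedom 3.73 or higher). Exons of Pdia3, Pdia6, Syvn1, Hsp90b1, Derl2 and Manf overlap another counted gene on the opposite strand, and those of Manf and Pdia4 one on the same strand, so their values are uncertain. Alternatives were DESeq2 size factors, total counts, 2 other filters, DESeq2 1.42.0, the replicate block, length and GC trends removed as offsets, and each replicate left out.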

Additional observations from a re-analysis of the deposited data

How the results depend on the processing

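Of the 18 called ER genes, 10 kept direction and call in all 13 alternatives: Pdia6, Ero1l and Derl3 as higher, and Dnajc3, Pdia3, Herpud1, Xbp1, Atf6, Syvn1 and Uggt1 as lower. With single replicates left out, the genes that rose numbered 3 to 15 (5, 3, 5 and 5 without WT replicates 1, 2 and 3 and Sirt6-KO replicate 2, and 15 without Sirt6-KO replicate 1), and those that fell 7 to 11, while the share of all genes called ran from 46.1% to 65.5%, against 55.7%. The median of the 41 genes was 0.0533 to 0.0926 with a replicate left out, 0.198 with total counts, 0.105 where only genes averaging 1 CPM or more were kept and 0.00643 with the length and GC trends removed. In other pathway genes, rises numbered 13 to 38 with a replicate left out and 32 with total counts. Falls numbered 49 with the length and GC trends removed. Of all genes tested, 54.8% were called with total counts and 67.3% with those trends removed. The cause was not tested. Ssr3 reversed to -0.17 with those trends removed. Deviations from the group mean in same-numbered WT and Sirt6-KO libraries correlated at 0.21, -0.03 and 0.20 for numbers 1, 2 and 3. WT 3 with Sirt6-KO 1 was at -0.22 and WT 1 with Sirt6-KO 3 at -0.21. The remaining pairs of different number ran from -0.01 to 0.03. Whether the numbers pair the samples was not tested. With the replicate block, 9 ER genes rose and 9 fell, with a median of 0.08, and over all genes 4670 rose and 4682 fell, against 4182 and 4163. Pdia4 and Derl1 were lost with the block, and Sdf2l1 and Hyou1 were gained. Counts of the ER genes per library ran from 70 to 25667; how far depth or the number of libraries limits the calls was not tested.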
